A study of Mus musculus with 10 samples.

Results

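Immediate early genes are switched on within minutes of a growth factor signal without new protein synthesis, and most encode transcription factors. Their mRNAs are as a rule short-lived, because AU-rich stretches in the 3′ UTR are bound by proteins that recruit the deadenylation and decay machinery. In neural stem cells (NSCs) these genes respond to EGF and FGF through the ERK pathway, which acts on serum response factor, its ternary complex partners and CREB. The genes described here are 10 of the 15899 genes in a RIP-seq matrix of adult mouse NSCs and were chosen by symbol: Fos, Fosb, Jun, Junb and Jund of the AP-1 transcription factor, the zinc finger factor Egr1, the nuclear proteins Ier2 and Ier5, and the Krüppel-like factors Klf4 and Klf6. All 10 were in the matrix.

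In RIP-seq an RNA-binding protein is immunoprecipitated (IP) and the RNA that comes with it is sequenced. Here the protein was MEX3A, a KH-domain RNA-binding protein with a RING domain, carrying a 3X-FLAG peptide at the C-terminus of the endogenous gene (genotype Mex3aFLAG/FLAG, called FLAG below). Mex3a+/+ cultures of the same background (WT), which have no tag, went through the same IP with an anti-FLAG antibody and give the nonspecific background. All groups were neurosphere cultures from the subependymal zone of mice aged 10 weeks, kept with EGF and FGF, so the inducers of these genes were present in the controls too. There were 2 FLAG and 2 WT libraries after crosslinking and 3 FLAG and 3 WT libraries in native conditions. The methods give 2 to 3 biological replicates per genotype, with both kinds of IP, and treat every IP as an independent experiment. Crosslinked and native libraries of the same number may come from the same culture, which the sources used here do not state.

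Values are the deposited normalized log2 values, whose distribution is nearly the same in each library, and from which read numbers cannot be derived, so sequencing depth is unknown. FLAG native libraries 1 and 3 had 329 and 178 genes tied at the lowest value, against at most 3 in the others. All 9 markers fixed for NSCs and progenitors were in the matrix, with a median log2 value of 6.48 to 8.14 in the 4 groups. Dcx, Tubb3, Mbp and Aif1, which mark neuroblasts, neurons, oligodendrocytes and microglia, were not among the genes of the matrix. Other markers of these cells were present: 3 of 5 for neuroblasts and neurons, 1 of 4 for oligodendrocytes and 3 of 5 for microglia. Their median log2 values in the 4 groups were 1.84 to 2.48, 1.52 to 1.87 and 3.5 to 4.09. The FLAG over WT comparison cannot tell RNA bound to MEX3A from a different level of that RNA in the FLAG cultures, because input RNA was not analysed here. Mex3a itself had log2 values of 2.75 and 3.03 in WT against 3.92 and 4.16 in FLAG after crosslinking. In native conditions it had 3.33, 3.52 and 2.89 in WT and 5.95, 4.03 and 6.10 in FLAG. Over all libraries its log2 fold change was 1.73 (SE 0.37, limma adjusted p = 0.0789), with no overlap of FLAG and WT in either protocol.

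The AU-rich pentamer ATTTA was counted on the sense strand of the 3′ UTR, overlapping copies included, in the GENCODE M21 transcript with the longest 3′ UTR. It occurred in 9 of the 10 genes, all but Ier2, and in 72.6% of the 12177 coding genes of the matrix with a 3′ UTR. Per kb, Fos had 4.91 pentamers, Junb 4.12, Jun 3.24, Klf6 2.25, Jund 1.88, Egr1 1.65, Klf4 1.02, Ier5 0.93 and Fosb 0.43. The median of the 10 genes was 1.76 per kb against 1.28 for coding genes, and 6 of the 10 lay above the coding median. At least 3 pentamers were found in 3 of the 10 genes (Fos, Jun and Klf6) and in 41.8% of coding genes. The 3′ UTRs of the 10 genes had a median length of 1099 nt against 1455 nt. The longer nonamer TTATTTATT, searched in the same way, occurred only in Fos among the 10 and in 8.40% of coding genes. The following 30-base windows around pentamers are shown because AU-rich elements are what these mRNAs are known for. They are read 5′ to 3′ on the strand of the gene from the GRCm38 genome, with the pentamers in capitals.
Fos, chr12:85477100-85477129, plus strand: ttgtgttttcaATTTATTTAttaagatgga
Jun, chr4:95049207-95049236, minus strand: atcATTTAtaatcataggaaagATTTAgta
Junb, chr8:84977127-84977156, minus strand: aatatatttgtgtATTTAacagggagggga
Klf4, chr4:55527258-55527287, minus strand: atatgtaatataaATTTAagcaaacttcta
Klf6, chr13:5868009-5868038, plus strand: ttgtataagctgtATTTAcaaatcgcagtg
The Fos window holds overlapping pentamers, the Jun window holds a pair that are apart, and the windows of Junb, Klf4 and Klf6 hold a single pentamer between unlike flanks.

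The MEX-3 recognition element, a bipartite motif of the MEX-3 family searched by its letters alone and on the sense strand, occurred in 8 of the 10 3′ UTRs and in 79.1% of those of coding genes. The motif was not found in Junb and Egr1. Klf6 held 13 matches and Ier5 held 9, counted from each start, so that nested matches with a shared end leave 10 and 6 distinct ends, while Jun held 3, Fos, Fosb and Klf4 held 2 each and Jund and Ier2 held 1 each. Klf4, the gene with the largest FLAG over WT difference of the 10 on the deposited scale, had these matches, shown in capitals over their whole length.
Klf4, chr4:55527544-55527558, minus strand: TGAGTCGTGGTTCTA
Klf4, chr4:55527169-55527184, minus strand: TGAGAAATAAGTTTTA
Per kb the 10 genes had a median of 1.96 matches and coding genes 2.15, with 4 of the 10 above the coding median.

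The 10 genes were compact. The exonic share of the gene body ran from 49.3% in Klf6 to 100% in Jun, Jund, Ier2 and Ier5, with a median of 85.9% against 16.9% for coding genes. All 10 lay above the coding median. The transcript of Jun, Junb, Jund, Ier2 and Ier5 has a single exon, which holds for 1.90% of coding genes. Jund (chr8:70698949-70700616) overlaps the antisense gene Gm11175 by 919 nt, Jun (chr4:95049034-95052222) overlaps Junos by 689 nt and Junb (chr8:84974484-84978718) overlaps Prdx2 on the other strand by 351 nt. The strand setting of the counting is not given in the sources used here, so reads of these pairs may not be told apart. Of the 75-nt windows of the Jund transcript, 45.9% also occur in Gm11175 on either strand.

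The question of the IP was which RNAs come down with MEX3A beyond the untagged background. Of the 10 genes, the log2 ratio of FLAG to WT was above 0 for 9 after crosslinking, for 10 in native conditions and for 10 over all libraries. Among all genes it was above 0 for 46.3%, 47.4% and 46.9%. None of the 10 passed the test (limma with a mean-variance trend, Benjamini-Hochberg adjusted p under 0.05 over the whole matrix together with a log2 fold change over 0.58) in any of these comparisons. The same rule called 0% of all genes in either direction after crosslinking and 0.107% in native conditions. With all libraries in 1 fit that had a term for the protocol, it called 0.264% higher and 0.233% lower. The lowest adjusted p of the 10 genes was 0.096, that of Klf4 over all libraries.

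The median log2 fold change of the 10 genes was 0.38 after crosslinking, 1.13 in native conditions and 0.79 over all libraries. The medians of all genes were -0.02, -0.04 and -0.03. With an unadjusted p under 0.05 and a log2 fold change over 0.58, 1 of the 10 genes (Klf6) was higher in FLAG after crosslinking, against 2.78% of all genes. That count was 3 without FLAG crosslinked library 1 and 0 without each of the other 3 crosslinked libraries. In native conditions 7 of the 10 met this rule, against 7.77% of all genes. Over all libraries the same 7 met it (Fos, Fosb, Jun, Jund, Egr1, Klf4 and Klf6), against 7.24% of all genes. The native count of 7 was 2 without WT native library 3, 3 without FLAG native library 1, 3 without FLAG native library 3 and 4 without WT native library 1. The all-library count of 7 was 4 without FLAG native library 1 and 5 to 7 without any other single library, and it was 2 with a pseudocount of 8. The share of all genes that met the unadjusted rule was not computed for these alternatives, so their counts have no background beside them. The native and the all-library comparisons share the native libraries.

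**Figure D1:**
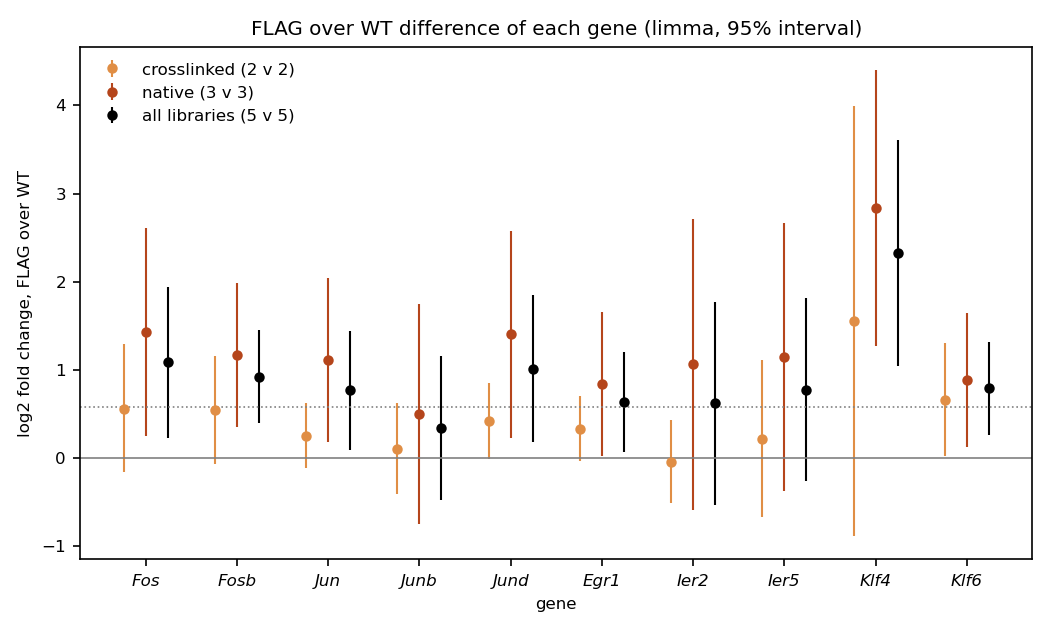
The log2 fold change of FLAG over WT (vertical axis) is drawn for each of the 10 genes with its 95% interval from limma, after crosslinking (orange), in native conditions (red) and over all libraries (black). The dotted line marks 0.58. Klf4 has the highest point in each comparison, and the crosslinked interval of 9 of the genes includes 0.

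FOS proteins do not form stable dimers with themselves and pair with JUN proteins to form AP-1. Fos had log2 values of 4.59 and 4.96 in WT and 5.04 and 5.65 in FLAG after crosslinking. In native conditions it had 3.69, 4.70 and 2.32 in WT against 5.40, 4.92 and 4.69 in FLAG. The crosslinked groups did not overlap, and in native conditions WT library 2 lay just above the lowest FLAG library. The log2 fold change of Fos was 0.56 after crosslinking (SE 0.26, adjusted p = 0.709), 1.43 in native conditions (SE 0.52, adjusted p = 0.268) and 1.09 over all libraries (SE 0.39, adjusted p = 0.172). After crosslinking it was 0.26 without FLAG library 2 and 0.87 without FLAG library 1, and without WT native library 3 it was 0.81 in native conditions and 0.70 over all libraries. Fosb, a FOS paralog that also acts in long-term responses of neurons, had 1.72 and 1.43 in WT and 1.89 and 2.35 in FLAG after crosslinking. In native conditions Fosb had 0.39, 1.46 and 0.82 in WT and 2.04, 2.24 and 1.91 in FLAG. In both protocols the FLAG libraries were all above the WT libraries. Over all libraries Fosb had a log2 fold change of 0.92 (SE 0.24, adjusted p = 0.103), a ratio of 1.90.

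JUN proteins are the other arm of AP-1, with JUN a strong activator and JUNB and JUND often weaker ones. Jun had log2 values of 3.98 and 3.75 in WT and 4.02 and 4.22 in FLAG after crosslinking, and the groups did not overlap. In native conditions Jun had 3.96, 4.55 and 3.37 in WT and 5.54, 4.21 and 5.46 in FLAG. FLAG libraries 1 and 3 stood above all WT libraries, and FLAG library 2 lay within the WT range. Without FLAG native library 2, Jun was called higher in native conditions (log2 fold change 1.54, adjusted p = 0.0169), against 1.11 (adjusted p = 0.271) with it. In that setting 9.12% of all genes were called higher and 10.8% lower. Jund had 1.21 and 1.09 in WT and 1.69 and 1.46 in FLAG after crosslinking, and 1.72, 2.25 and 0.48 in WT and 2.49, 2.45 and 3.73 in FLAG in native conditions. Like Fosb, Jund had no overlap of FLAG and WT in either protocol. Over all libraries Jund had a log2 fold change of 1.01 (SE 0.38, adjusted p = 0.182). Its antisense partner Gm11175 had a log2 fold change of 1.05 (SE 0.47, adjusted p = 0.232), and the part of shared reads in these values was not tested. Junos, antisense to Jun, had -0.10 (SE 0.15).

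Junb had the smallest difference of the 10 genes over all libraries. Its log2 values were 2.61 and 2.42 in WT and 2.42 and 2.83 in FLAG after crosslinking. In native conditions they were 1.96, 2.66 and 0.39 in WT and 2.41, 2.42 and 1.70 in FLAG, so the groups overlapped in both protocols. The log2 fold change of Junb over all libraries was 0.35 (SE 0.37, adjusted p = 0.570), and without WT native library 3 it was -0.025.

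Egr1 encodes a zinc finger factor induced by ERK signals and curbed by the NAB corepressors. It had the highest level per exonic kb of the 10 genes in each group, from a mean log2 per kb of 3.50 in native WT to 4.35 in native FLAG. Its log2 values were 6.19 and 6.12 in WT and 6.34 and 6.64 in FLAG after crosslinking, without overlap. In native conditions they were 5.65, 6.32 and 5.03 in WT and 7.11, 6.10 and 6.33 in FLAG, and WT library 2 lay within the FLAG range. The log2 fold change over all libraries was 0.64 (SE 0.26, adjusted p = 0.204).

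IER2 and IER5 are nuclear proteins made early after growth factor or stress signals. Ier2 had log2 values of 2.31 and 2.21 in WT and 2.03 and 2.41 in FLAG after crosslinking, with a log2 fold change of -0.04 (95% interval -0.51 to 0.43). In native conditions it had 1.62, 2.30 and -0.86 in WT and 2.51, 2.10 and 1.64 in FLAG. A single library, WT native 3, lay far below the rest, and without it the native log2 fold change of Ier2 was 0.12 in place of 1.06. Ier5 had 0.70 and 0.01 in WT and 0.41 and 0.74 in FLAG after crosslinking, and 0.50, 0.80 and -1.46 in WT and 1.78, 0.28 and 1.22 in FLAG in native conditions. Its groups overlapped in both protocols, and its native log2 fold change was 1.15 with all libraries (adjusted p = 0.378) and 0.44 without WT native library 3.

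KLF4 and KLF6 are zinc finger factors, of which KLF4 is known as a pluripotency factor that also restrains proliferation in several tissues. Klf4 was the lowest of the 10 genes per exonic kb in both WT groups, with a mean log2 per kb of -2.59 after crosslinking and -3.20 in native conditions. Its log2 values were -1.86 and -0.11 in WT and -0.26 and 1.40 in FLAG after crosslinking, so FLAG library 1 lay between the WT libraries. In native conditions they were -2.68, -0.38 and -1.71 in WT and 0.80, 0.87 and 2.06 in FLAG, with every FLAG library above every WT library. The log2 fold change of Klf4 was 1.56 after crosslinking (SE 0.88, adjusted p = 0.752), 2.83 in native conditions (SE 0.69, adjusted p = 0.206) and 2.32 over all libraries (SE 0.58, adjusted p = 0.096), a ratio of 5.00. The value depends on the pseudocount, as the levels are low. With a pseudocount of 8 the all-library difference was 0.26 on the log2 scale, below those of Fos (0.75), Klf6 (0.62), Egr1 (0.57), Jun (0.56) and Jund (0.35). The crosslinked difference of Klf4 ranged from 0.68 without WT library 1 to 2.43 without WT library 2, with 0.73 without FLAG library 2 and 2.38 without FLAG library 1. Klf4 is on the list of bound genes that the study chose on these libraries, so the list is no independent evidence of its direction. Klf6 had 4.63 and 4.32 in WT and 4.87 and 5.40 in FLAG after crosslinking, without overlap. In native conditions Klf6 had 4.30, 4.75 and 4.05 in WT and 5.26, 4.59 and 5.89 in FLAG, and FLAG library 2 lay below WT library 2. Over all libraries Klf6 had a log2 fold change of 0.80 (SE 0.24, adjusted p = 0.133).

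**Figure D2:**
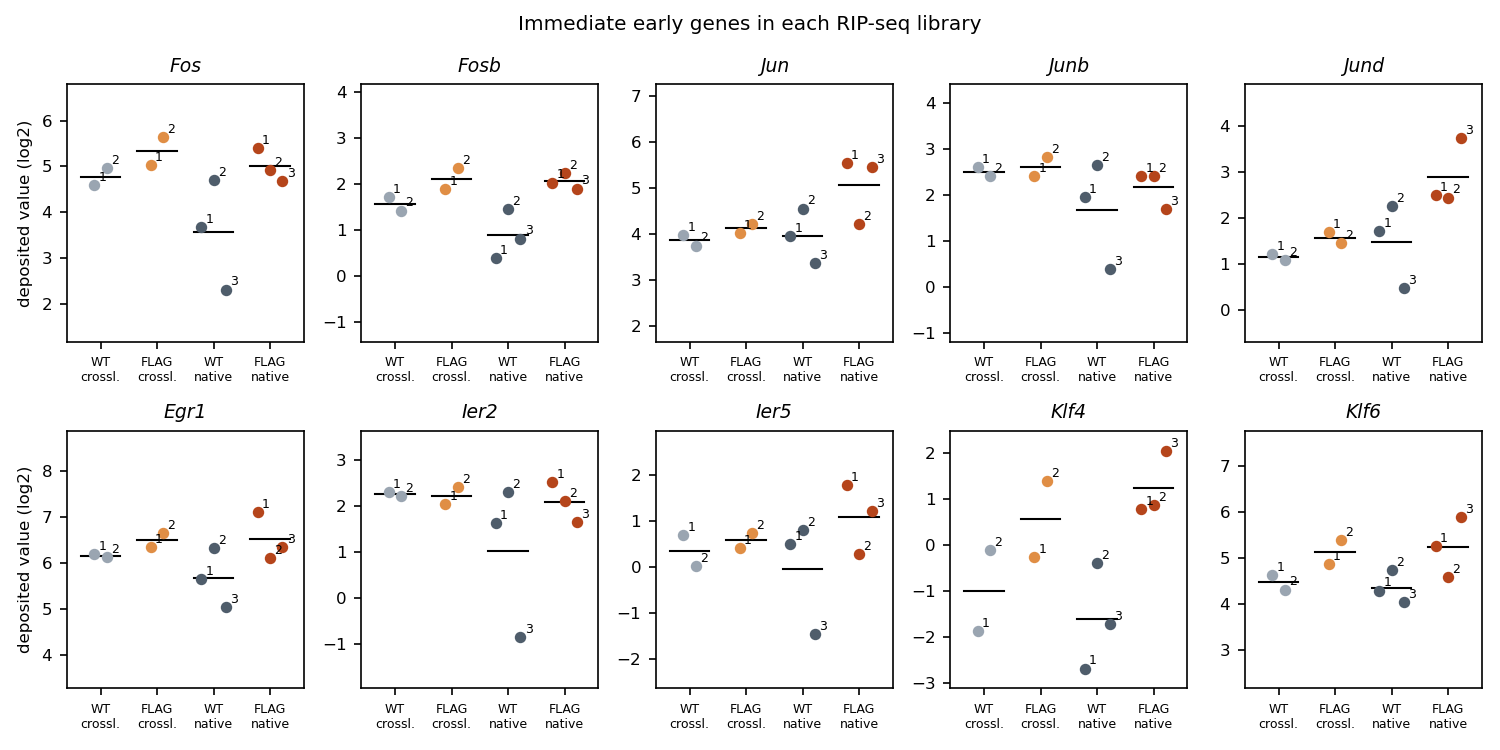
Each panel shows the deposited log2 value of 1 gene (vertical axis, the same span in every panel) in the 10 libraries, with points numbered by replicate and a bar at the group mean. WT native library 3 is the lowest point of all libraries for 8 of the genes, and the FLAG and WT points of Fosb and Jund do not overlap in either protocol.

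All FLAG values exceeded all WT values after crosslinking for 6 of the 10 genes (Fos, Fosb, Jun, Jund, Egr1 and Klf6), against 19.1% of all genes. In native conditions this held for Fosb, Jund and Klf4, against 8.62% of all genes. In both protocols it held for Fosb and Jund, against 4.84% of all genes. None of the 10 genes had all FLAG values below all WT values in either protocol, against 19.9% of all genes after crosslinking and 10.8% in native conditions.

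The difference of FLAG over WT was also compared between the protocols. The native log2 fold change exceeded the crosslinked one in each of the 10 genes, by 0.22 in Klf6 to 1.28 in Klf4, with a median of 0.86. That median was 0.54 with a pseudocount of 1, 0.20 with a pseudocount of 8 and 0.51 without FLAG crosslinked library 1. Without WT native library 3 the median was 0.23 and the difference was above 0 in 9 of the genes, all but Junb. With the trend on exonic share removed (an alternative described below) the median was 0.47, and it was above 0 in all but Klf6. None of these differences passed the test (lowest adjusted p of the 10 genes 0.970), and the rule of an adjusted p under 0.05 called 0% of all genes. For Klf4 the 95% interval of the difference ran from -1.36 to 3.91, so these libraries could not exclude a large difference between the protocols. Native and crosslinked WT libraries were also compared, in which none of the 10 genes was called, against 0.333% of all genes. Ier2 had -1.24 (SE 0.74) and Fos -1.21 (SE 0.55) on the log2 scale there. Without WT native library 3 they had -0.30 (SE 0.36) and -0.58 (SE 0.38). Between native and crosslinked FLAG libraries none was called either, against 0.44% of all genes, and Jund had 1.32 (SE 0.53) and Jun 0.95 (SE 0.42). With the trend on exonic share removed these were 0.80 (SE 0.43) and 0.43 (SE 0.22). These 2 comparisons share libraries with the FLAG over WT comparisons.

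The 10 genes had their lowest and highest values in a few of the libraries. WT native library 3 held the lowest of the 10 values for 8 of the genes (all but Fosb and Klf4), and WT native library 1 for the other 2. Of all genes, 10.9% had the lowest value in WT native library 3. Among the 1518 other coding genes with an exonic share of at least 49.3%, the lowest share of the 10 genes, 27.3% did. The highest value lay in FLAG native library 1 for 4 of the genes, in FLAG native library 3 for 3 and in FLAG crosslinked library 2 for 3. Of all genes, 21.2%, 15.9% and 3.34% had the highest value in these libraries, and of the other exonic coding genes 41.8%, 29.4% and 2.96%. Against each gene's mean over the 10 libraries, the median deviation of the 10 genes was -1.45 in WT native library 3, -0.43 in WT native library 1 and 0.20 in WT native library 2. It was 0.75, 0.26 and 0.50 in FLAG native libraries 1, 2 and 3. After crosslinking it was 0.00 and -0.13 in WT and 0.11 and 0.59 in FLAG. The SD among the WT native libraries was 1.66 for Ier2, 1.23 for Ier5 and 1.16 for Junb, which in each exceeded the native difference between the group means. For Fos the SD of 1.19 lay below the difference.

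Other coding genes with a high exonic share also differed between the libraries. The 1518 such genes had a median deviation of -0.36 in WT native library 3, -0.24 in WT native library 1 and 0.15 in WT native library 2. They had 0.64, -0.08 and 0.52 in FLAG native libraries 1, 2 and 3. Their median FLAG over WT difference on the log2 scale was 0.11 after crosslinking, 0.50 in native conditions and 0.36 over all libraries. Of the 10 genes, 9, 10 and 9 lay above these medians. An unadjusted p under 0.05 with a log2 fold change over 0.58 was found for 10.3%, 20.8% and 23.3% of the 1518 genes. An alternative chosen after seeing the data took each library's median deviation out in 20 bins of exonic share among coding genes. The median log2 fold change of the 10 genes was then 0.14 after crosslinking, 0.50 in native conditions and 0.36 over all libraries, and 0 genes of the 10 were called. The unadjusted rule was then met by 1 of the 10 genes in native conditions and by 3 over all libraries. The share of all genes that met it with the trend removed was not computed, so these counts have no background beside them. Klf4 had 2.02, Fos 0.79 and Klf6 0.61 over all libraries, while Egr1 had 0.15, Ier2 0.13 and Junb 0.05. The part that exonic share or RNA composition of a library had in the differences of the 10 genes was not tested further.

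**Figure D3:**
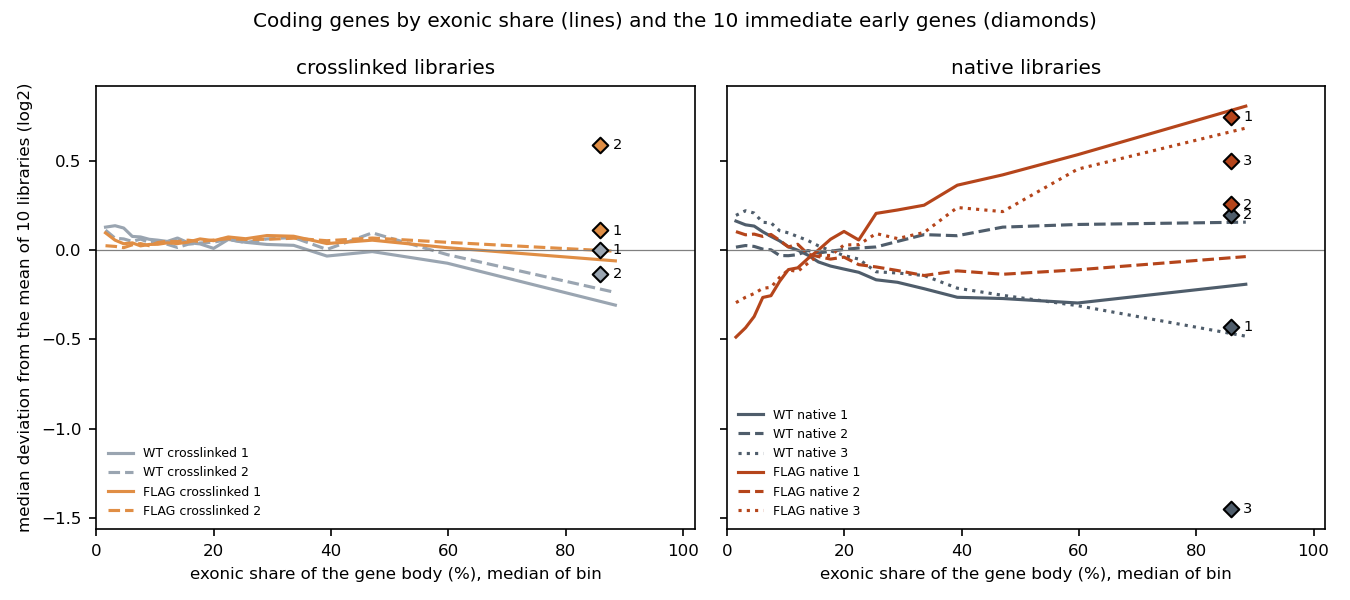
Lines give the median deviation of coding genes from their mean over the 10 libraries (vertical axis, log2) in 20 bins of the exonic share of the gene body (horizontal axis, percent), for each crosslinked (left) and native (right) library. Diamonds, numbered by replicate, give the median deviation of the 10 immediate early genes at their median share of 85.9%. FLAG native libraries 1 and 3 climb with exonic share, and the diamond of WT native library 3 at -1.45 lies below its line.

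Without WT native library 3 the median native log2 fold change of the 10 genes was 0.77, and none was called. Fosb had 1.14, Jund 0.90, Jun 0.81, Fos 0.81 and Klf4 2.77 there, while Junb had -0.14. An alternative chosen after seeing the data left out FLAG native library 1 as well, the library with the most tied low values. It gave a median of 0.59, with Klf4 at 3.00, Fosb at 1.15 and Jund at 1.10 and with Junb at -0.25 and Ier2 at -0.089. With FLAG native libraries 1 and 3 both left out, also chosen after seeing the data, library 2 alone stood for native FLAG. The native median was then 0.85 and the all-library median 0.46. In that setting Jun had a native log2 fold change of 0.25 and Klf6 of 0.23. Without FLAG native library 2, by contrast, Jun, Klf4 and Klf6 were called higher in native conditions, in a setting that called 9.12% of all genes higher.

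**Figure D4:**
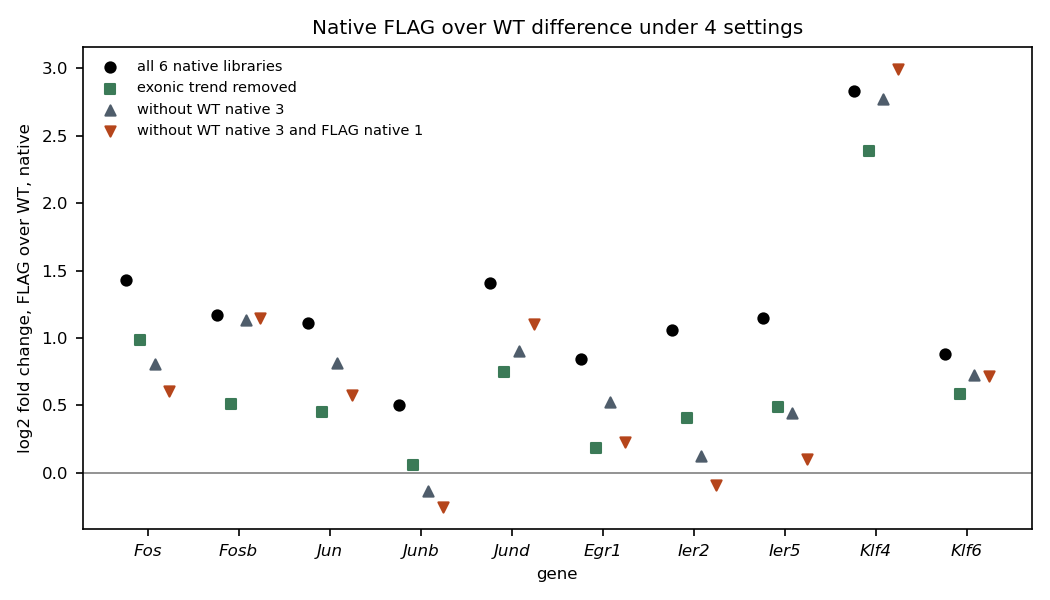
The native log2 fold change of FLAG over WT (vertical axis) is given for each gene with all 6 libraries (circles), with the trend on exonic share removed (squares), without WT native library 3 (upward triangles) and without FLAG native library 1 as well (downward triangles). Klf4 stays above 2 in each of these settings, and Junb and Ier2 lie between -0.25 and 0.12 when libraries are left out.

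The other genes of the pathway were taken from lists of known members. None was called in any list over all libraries. Of 30 other immediate early genes, 10 had an unadjusted p under 0.05 with a log2 fold change over 0.58 and none had one below -0.58, against 7.24% and 5.28% of all genes, with a median of 0.52. The 3 with the smallest p were Phlda1, a pleckstrin-homology protein (1.57, SE 0.39, adjusted p = 0.096), Tob1, an antiproliferative partner of the deadenylase (1.77, SE 0.45, adjusted p = 0.101), and Socs3, a feedback inhibitor of cytokine signals (2.28, SE 0.59, adjusted p = 0.103). WT native library 3 held the lowest of the 10 values for 18 of these 30 genes, as it did for most of the 10 genes described above. Of the 7 other EGR and NR4A genes, including the NAB corepressors, 3 met the unadjusted rule (Egr2, Egr3 and Nab2, the last named after its value was seen), with a median of 0.69. Egr2 had 1.19 (SE 0.43), Egr3 0.91 (SE 0.35) and Nab1 0.46 (SE 0.13), none of them called.

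The closest relatives of the AP-1 and KLF genes lay nearer to the median of all genes. The 11 other AP-1 family genes had a median of 0.13. Of them 1 met the unadjusted rule, against 7.24% of all genes, namely Mafk, a small MAF protein (0.87, SE 0.34). Fosl2, a FOS paralog, had 0.55 (SE 0.17) and Mafg 0.46 (SE 0.21). The 10 other KLF genes had a median of 0.06, with Klf10 at 0.67 (SE 0.19), Klf3 at 0.45 (SE 0.15) and Klf12 at -0.32 (SE 0.14). Only Klf10 of the 10 met the rule, against the same 7.24% of all genes. The median exonic share was 24.2% in the AP-1 list, 20% in the KLF list, 23.6% in the EGR and NR4A list and 61.0% among the other immediate early genes. Whether the 10 genes differ from their relatives was not tested.

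The inducers upstream of these genes, 26 kinases and factors of the ERK, SRF and CREB pathways, had a median of -0.08. Their median exonic share was 11.5%, against 85.9% for the 10 genes. Of them 3 met the unadjusted rule upward, against 7.24% of all genes, and 1 downward, against 5.28%. Elk4, a ternary complex factor, had 1.23 (SE 0.39) and Rps6ka1, an ERK-activated kinase, -0.76 (SE 0.24). The others that met it, named after their values were seen, were Srf with 0.71 (SE 0.26) and Creb1 with 0.77 (SE 0.31), which encode serum response factor and CREB. Mapk3, which encodes ERK1, had 0.53 (SE 0.19). Of the 14 proteins that bind AU-rich or related elements, 3 met the rule upward (Zfp36, Zfp36l1 and Zfp36l2, the last named after its value was seen) and 1 downward, against the same 7.24% and 5.28% of all genes, with a median of 0.22. Zfp36, which encodes the decay factor tristetraprolin and is itself an immediate early gene, had 1.14 (SE 0.35), its paralog Zfp36l1 had 0.69 (SE 0.19) and Elavl4, which encodes a stabilizing protein of neurons, had -1.52 (SE 0.37). None of these was called, and the median exonic share of the 14 was 28.7%. The lists overlap in Atf3, Maff and Zfp36, and the inducers share Egfr with the markers of NSCs and progenitors.

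**Figure D5:**
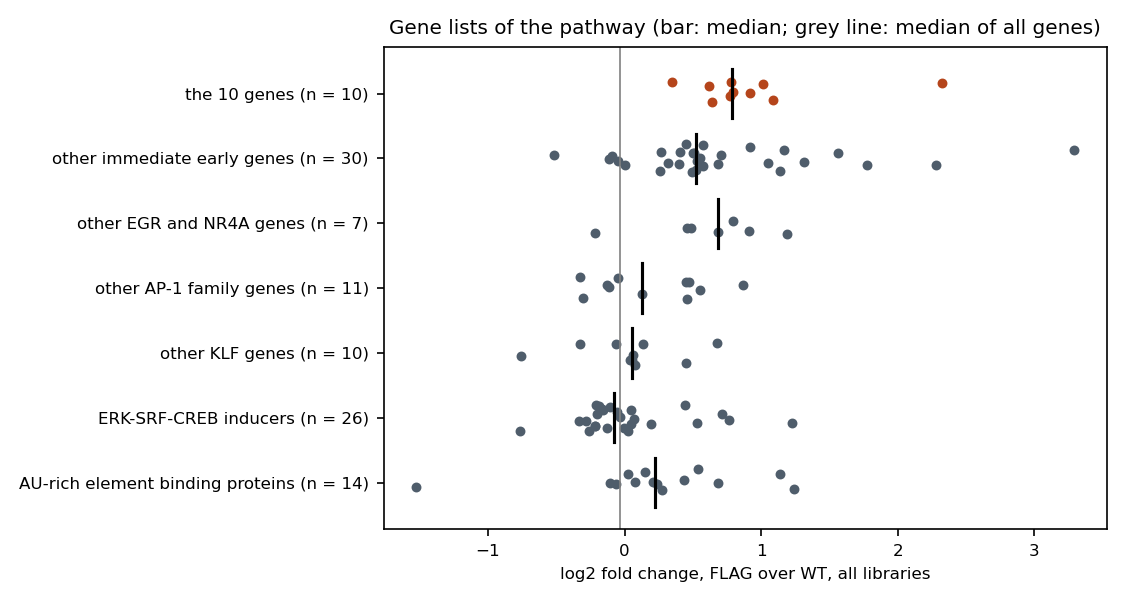
Points are genes at their log2 fold change of FLAG over WT over all libraries (horizontal axis), by list (rows), with a bar at the median of each list and a grey line at the median of all genes (-0.03). The 10 genes have a median of 0.79 and the ERK, SRF and CREB list one of -0.08. Their median exonic shares are 85.9% and 11.5%.

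Markers that moved with the genotype are given beside these results. Rbfox3, a marker of neurons, was called lower in FLAG over all libraries (-1.31, SE 0.17, adjusted p = 0.0127). Of the 9 markers of NSCs and progenitors, 5 met the unadjusted rule upward, against 7.24% of all genes and 23.3% of the other exonic coding genes. Among them were Vim (1.01, SE 0.28) and Sox2 (0.98, SE 0.23), with exonic shares of 53.3% and 100%. None met it downward, against 5.28% of all genes. Slc1a3 had -0.44 (SE 0.16) and Egfr -0.33 (SE 0.12), both named after their values were seen, with exonic shares of 11.1% and 6.8%. The part of exonic share in these marker differences was not tested. The summed linear level of the 9 markers was 2114.0 to 2452.6 in crosslinked WT and 2204.9 to 2278.0 in crosslinked FLAG. In native conditions it was 2694.2 to 2925.5 in WT and 2372.9 to 3149.2 in FLAG. The 3 neuron markers in the matrix of 5 summed to 28.7 to 39.7 in native WT and 12 to 17 in native FLAG. Most of this sum was Rbfox3, at log2 4.46 to 4.78 in native WT against at most 3.10 for Syt1 and 1.86 for Snap25. Over all libraries Snap25 had -0.64 (SE 0.32) and Syt1 -0.52 (SE 0.26), neither called. Exonic shares were 1.4% for Rbfox3, 9.8% for Snap25 and 1.6% for Syt1, and their part in these differences was not tested either. Of the markers of oligodendrocytes, ependymal cells, microglia and endothelial cells in the matrix, none was called. By the unadjusted rule, Pecam1 of the 2 endothelial markers was lower in FLAG over all libraries (-0.58, SE 0.23), and Kdr, the other, had -1.09 (SE 0.53). The part of cell composition in the differences of the 10 genes was not tested, and in bulk samples fewer cells of a type and less RNA per cell cannot be told apart.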

How the data were processed

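RNA from anti-FLAG IPs of FLAG and WT neurosphere cultures was measured in 10 libraries. The authors trimmed the reads with cutadapt and Trimmomatic, mapped them to GRCm38 with HISAT2 and counted them per gene with featureCounts. The matrix deposited by the authors holds log2 values after a filter on low genes and a normalization whose exact step is not given in the sources used here. The methods and the labels name different tools for it. Whole reads could not be recovered, which leaves count models and the precision of single values out of reach.

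FLAG was compared with WT with limma 3.58.1 (lmFit, eBayes with a trend, R 4.3.3) on the deposited values, in each protocol by itself and in 1 fit of the 10 libraries with a protocol term. A fit of 4 groups gave the other contrasts. P-values were adjusted over 15899 genes (Benjamini-Hochberg). Genes with an adjusted p under 0.05 and a log2 fold change over 0.58 in either direction were called, after the study's thresholds. P-values measure the spread between these libraries, which the fits without a block take as independent. If crosslinked and native libraries of the same number share a culture, the SEs and p-values over all libraries may be too small. Exonic shares and 3′ UTRs came from GENCODE M21 (15864 genes matched), whereas the authors used M16, and sequences came from RefSeq's GRCm38.p6 genome. Python 3.11.15, pandas 2.3.3 and pysam 0.24.0 were used.

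The 10 genes and the lists were chosen with earlier results of these data known. The text names all 10 genes, Mex3a and, from each list, the genes called over all libraries or else the 3 with the smallest p. Of these, 1 gene is not reported here. Alternatives were pseudocounts of 1 and 8, a minimum mean of 10, median centring, quantile normalization, a replicate block, array weights, robust moderation, 1 fit of 4 groups, each library left out, merged 3′ UTR exons and the nonamer forms. Removal of the trend on exonic share, library pairs left out and a crossed block were added after seeing the data.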

Additional observations from a re-analysis of the deposited data

How the results depend on the processing

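The crosslinked comparison called 0 of the 10 genes under every alternative run. With array weights, which let limma weigh libraries by their spread, 6 were called higher in native conditions (Fosb, Jun, Jund, Egr1, Klf4 and Klf6) and 4 over all libraries (Fos, Fosb, Klf4 and Klf6), with a median log2 fold change of 0.45 there. Over all libraries the weights were 9.02 for WT crosslinked library 1 and 10.2 for FLAG crosslinked library 2, against 0.124 to 1.36 for the others. The fit of the native libraries alone had weights of its own, from 0.292 for FLAG native library 2 and 0.528 for FLAG native library 1 to 3.32 for WT native library 1. With array weights 10.4% of all genes were called higher and 12.1% lower in native conditions, and 6.95% and 6.06% over all libraries. The cause was not tested. With each library left out in turn, 0 to 3 of the genes were called in native conditions. The 3 were Jun, Klf4 and Klf6, without FLAG native library 2, where 9.12% of all genes were called higher. Over all libraries the count was 0 to 1, with Klf6 called without FLAG native library 2 (0.96, adjusted p = 0.0389; 3.25% of all genes higher) and Klf4 without WT crosslinked library 2 (2.71, adjusted p = 0.038; 1.14%). Between native and crosslinked FLAG libraries it was 0 to 1, with Jun called without FLAG native library 2 (1.38, adjusted p = 0.0234), where 9.08% of all genes were called higher.

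The members' median with libraries left out ranged from 0.22 to 0.44 after crosslinking, 0.77 to 1.52 in native conditions and 0.62 to 0.95 over all libraries. With a pseudocount of 8 it was 0.17, 0.42 and 0.31, and with the trend on exonic share removed 0.14, 0.50 and 0.36. It was 0.59 in native conditions without FLAG native library 1 and WT native library 3, and 0.46 over all libraries without FLAG native libraries 1 and 3.

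In the FLAG over WT comparisons, signs turned in Junb, Ier2 and Ier5. Leaving out single libraries gave a range of -0.10 to 0.32 for Junb, -0.23 to 0.15 for Ier2 and -0.12 to 0.57 for Ier5 after crosslinking, and Ier5 had -0.018 with the exonic trend removed. For Junb the range was -0.14 to 1.00 in native conditions and -0.025 to 0.60 over all libraries. Without FLAG native library 1 and WT native library 3, Junb had -0.25 and Ier2 -0.089 in native conditions and -0.072 and -0.064 over all libraries. Without FLAG crosslinked library 2 the crosslinked values were 0.32 for Fosb, 0.16 for Jun, 0.18 for Egr1 and 0.40 for Klf6, and Jun had 0.14 without WT crosslinked library 2. In native conditions Jund had 0.90 and Egr1 0.52 without WT native library 3, Egr1 0.55 without FLAG native library 1 and Klf6 0.56 without FLAG native library 3. The median count of AU-rich motifs per kb was 0 for either nonamer form.

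Same-numbered FLAG and WT libraries did not deviate together (correlations of -0.43 to -0.15 over genes). After crosslinking, with 2 libraries a group, both pairs give the same value by construction (-0.27). With so few libraries these correlations cannot settle whether the numbers pair them. The replicate block joins FLAG and WT of the same number, so it does not model a culture shared within a genotype. With a replicate block the median was 0.38, 1.13 and 0.79 and 0 of the genes were called, while over all libraries 14 genes of the matrix were called higher and 20 lower, against 42 and 37 without it. Same-numbered crosslinked and native libraries correlated at 0.15 to 0.39 within a genotype, over 2 pairs each. There the block called 2 genes between the WT groups and 12 between the FLAG groups, against 53 and 70. With the numbers crossed, the block called 0 genes of the matrix in the crosslinked libraries. Leaving out single libraries gave 4 to 516 genes called higher over all libraries. With 2 or 3 libraries a group and unknown depth, differences smaller than the intervals given were not detectable.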
